A study of Arabidopsis thaliana with 2 samples.

Results

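At 379 SNP windows of *Arabidopsis thaliana* seeds, most RNA-seq matches carried the Bur-0 base when Bur-0 was the mother, and at least 25% still carried it when Bur-0 was the father. A SNP window is a 71 nt stretch of the TAIR8 genome centred on a base that differs between the accessions Col-0 and Bur-0, held in a Col-0 and a Bur-0 version. A match is a whole 36 nt read placed on 1 of these versions with up to 2 mismatches, which the authors kept where it was unique among them. The members were chosen by 4 conditions: no other matched SNP within 35 nt, at least 20 matches in each cross, at least 5 Col-0 matches over both crosses, and a Bur-0 share of at least 95% with Bur-0 as mother and of at least 25% with Bur-0 as father. They were 379 of the 24535 windows that met the conditions on distance and depth (1.54%), and of the 147349 windows with any match. The same conditions with the accessions exchanged were met by 393 windows. A further 290 windows met every condition but that of at least 5 Col-0 matches. They were not members and are counted among the other comparable windows below.

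The study crossed the 2 accessions in both directions and sequenced mRNA of F1 seeds at 4 days after pollination (DAP). In Bur-0×Col-0 the mother was Bur-0 and the father Col-0; in Col-0×Bur-0 the mother was Col-0 and the father Bur-0. Female plants of both crosses were emasculated and pollinated by hand, and whole seeds were used. Each cross was 1 sample run on 4 lanes, which are taken here as technical repeats of 1 library. The labels do not say that all 4 lanes carried the same library. No comparison of the crosses has a replicate check.

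A seed combines tissues of different parentage. The seed coat carries the genome of the mother alone, the embryo holds the parental genomes in equal numbers, and the endosperm, which feeds the embryo, is triploid, with 2 maternal copies to 1 paternal copy (2m:1p). Reciprocal crosses separate an effect of the parent from one of the accession: a transcript made from the maternal copy changes its allele when the cross is turned round, whereas a difference in regulatory or coding sequence stays with the accession. Reads assigned to an allele by a single base can also come from another copy of a gene family that carries that base, and in whole seeds fewer cells of a tissue and less RNA per cell cannot be told apart.

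The files held 8576779 matches for Bur-0×Col-0, with 1733892 to 2313110 per lane, and 6773239 for Col-0×Bur-0, with 1295748 to 1830948 per lane. Lane 1 of each cross came from another sequencing instrument than the other lanes. Lane 2 of Col-0×Bur-0 stood apart from its own cross: the counts per window differed between it and the other lanes with a mean chi-square of 7.116 to 8.358 per degree of freedom, against 0.9905 to 1.258 for every other pair of lanes of either cross. The Bur-0 share of all matches was 6.24% in that lane and 7.05% to 7.09% in lanes 1, 3 and 4. Without it, 349 windows met the conditions, of which 333 were among the members. The summed paternal share without it is given below. Values for loci, stretches, chromosomes, single neighbours and starting places include that lane and were not computed without it.

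The Bur-0 share of the members, which the conditions fixed in part and which is given as a description, had a median of 99.41% where Bur-0 was maternal (Bur-0×Col-0) and of 52.75% where it was paternal (Col-0×Bur-0). The other 24156 comparable windows had medians of 97.78% and 1.66% in these crosses. In Col-0×Bur-0 the share ran from 25% to 100% with quartiles of 38.46% and 72.17%. It was below the 1 in 3 of a 2m:1p ratio in 59 members, from there to under 50% in 111, from 50% to under 75% in 123, from 75% to under 90% in 52 and at or above 90% in 34. The paternal Bur-0 allele held more than 50% of the matches at 205 members (54.1%). No Col-0 match was found in Bur-0×Col-0 at 167 members.

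**Figure D1:**
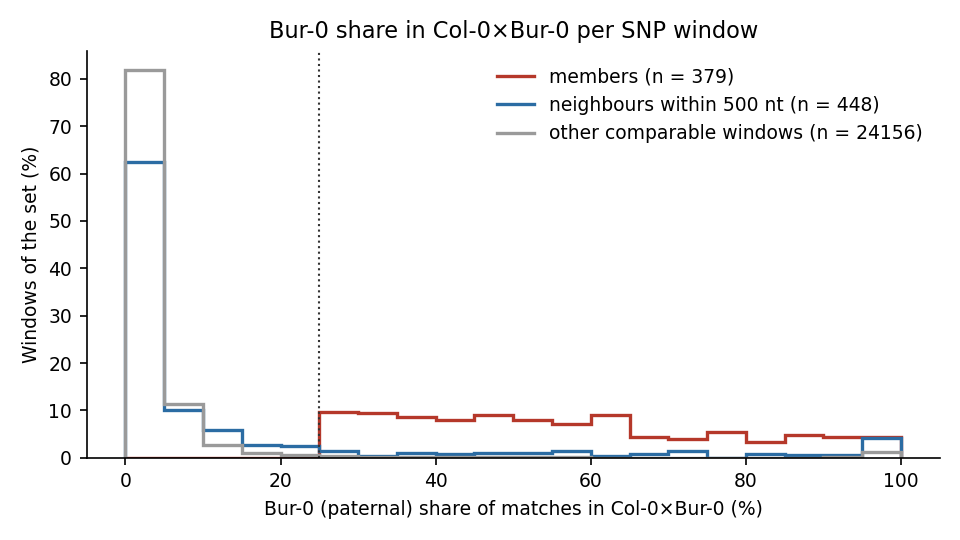
Share of the windows of each set (%, vertical axis) by the Bur-0 share of their matches in Col-0×Bur-0 (%, horizontal axis, bins of 5 percentage points). Red is the 379 members, blue their 448 neighbours and grey the other 24156 comparable windows; the dotted line is the limit of 25% that chose the members, whose median was 52.75%, against 2.784% for the neighbours and 1.66% for the other windows.

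Summed over members, 258166 of 259946 matches carried the Bur-0 base in Bur-0×Col-0 (99.32%), against 74169 of 123307 in Col-0×Bur-0 (60.15%, 95% Wilson interval 59.876% to 60.423%, which covers counting error only). A single window supplied 58.16% of the member matches in Bur-0×Col-0, against 15.7% in Col-0×Bur-0. Without it the summed shares were 98.43% and 63.12%. With that window kept but without lane 2 of Col-0×Bur-0, the paternal share was 59.08% over the 349 windows that then met the conditions.

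Levels of the Bur-0 allele were compared after division by the total matches of their library. The paternal Bur-0 level in Col-0×Bur-0 was 0.749 times the maternal Bur-0 level in Bur-0×Col-0 at the median member, with quartiles of 0.489 and 1.10 and a range of 0.0247 to 5.54. At 116 members the paternal level was at or above the maternal one. The total of both alleles on the same scale, in Bur-0×Col-0 over Col-0×Bur-0, had a median of 0.697 at the members and 0.711 at the other comparable windows.

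The limit of 25% did not fall in a gap of the shares. Just inside it lay chr3:21576674-21576744 with 9 Bur-0 matches of 36 in Col-0×Bur-0 (25%), chr5:7863709-7863779 with 5 of 20 (25%) and chr1:20932386-20932456 with 20 of 79 (25.32%). Just outside it lay chr1:22874130-22874200 with 32 of 130 (24.62%), chr2:13603192-13603262 with 24 of 98 (24.49%) and chr5:16563865-16563935 with 12 of 49 (24.49%). The first 3 windows had intervals reaching from 13.75% to 41.07%, from 11.19% to 46.87% and from 17.03% to 35.89%, so that counting error alone could move them across the limit. The fourth lowest member, chr3:22286950-22287020, had 37 of 146 Bur-0 matches (25.34%), with lane shares of 17.24%, 52.0%, 22.22% and 19.15%, so that lane 2 alone was above the limit.

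The members were found on all 5 chromosomes. They were 109 of 6543 comparable windows on chromosome 1 (1.67%), 29 of 3564 on chromosome 2 (0.814%), 85 of 4715 on chromosome 3 (1.8%), 66 of 3966 on chromosome 4 (1.66%) and 90 of 5747 on chromosome 5 (1.57%). Chromosome 2 had the lowest share. Most members stood alone: joined where they lay within 500 nt of each other, they formed 347 stretches, of which 320 held 1 member, 23 held 2, 3 held 3 and 1 held 4. The stretch of 4 lay on chromosome 5 between starts 8973418 and 8974411, and its members had Bur-0 shares in Col-0×Bur-0 of 58.1%, 51.72%, 48.74% and 70.14%. Windows between these members had shares of 0.621% at chr5:8974135-8974205 and 2.062% at chr5:8974312-8974382. In Bur-0×Col-0 the first of these windows had 35 Bur-0 and 109 Col-0 matches (24.31%), so that Col-0 was in excess in both crosses. The second had 25 and 7 in that cross (78.12%). On chromosome 4 the 3 members with starts at 8430659, 8430852 and 8430960 had 66.67%, 46.47% and 40.79%, and chr4:8430774-8430844, which lies between them, had 2.381% (10 of 420). The 3 members with starts at 439180, 439443 and 439710 on chromosome 4 had 27.66%, 29.41% and 37.74%, and the third stretch of this size lay in AT1G62020.

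The Bur-0 share in Col-0×Bur-0 was at least 25% in all 4 lanes at 296 members and in 3 or more lanes at 353. The median over members was 54.55% in lane 1, 50.94% in lane 2, 52.94% in lane 3 and 54.55% in lane 4. Within a member the lanes spanned a median of 16.67 percentage points. The share in lane 2 was above that of lanes 1, 3 and 4 together at 173 members and below it at 201, with a median difference of -0.84 percentage points and quartiles of -8.13 and 5.08.

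The member with the most matches was chr3:18278445-18278515, which lies between AT3G49220 and AT3G49470, the nearest loci that could be placed, with 28 genes between them in the order of the TAIR10.1 gene table. It had 151111 Bur-0 and 72 Col-0 matches in Bur-0×Col-0, against 8554 Bur-0 and 10808 Col-0 matches in Col-0×Bur-0. As a part of all matches, its total was 6.17 times as high in Bur-0×Col-0 as in Col-0×Bur-0, and its paternal Bur-0 level was 0.0717 times its maternal one. The Bur-0 share was between 99.93% and 99.97% in the lanes of Bur-0×Col-0. In Col-0×Bur-0 it was 44.04% in lane 1, 38.64% in lane 2, 44.71% in lane 3 and 44.58% in lane 4. Lane 2 was the low one and held 973 of the 19362 matches, against 5173, 6735 and 6481 in lanes 1, 3 and 4. The window next to it that could be tested, chr3:18278237-18278307, had 8106 Bur-0 and 4 Col-0 matches in Bur-0×Col-0, but no Bur-0 match among 1323 in Col-0×Bur-0, which allows a share of up to 0.227%.

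The second deepest member, chr1:18523041-18523111, had 5952 Bur-0 and 55 Col-0 matches in Bur-0×Col-0, against 4216 Bur-0 and 1250 Col-0 matches in Col-0×Bur-0. Its paternal share was 77.45%, 78.02%, 76.84% and 76.6% in lanes 1 to 4 of Col-0×Bur-0, which were close together. It lies between AT1G49950 and AT1G50120 and had no neighbour to test. At chr4:8571994-8572064, between AT4G14930 and AT4G15160, 6372 Bur-0 and 320 Col-0 matches were counted in Bur-0×Col-0, against 1785 and 1611 in Col-0×Bur-0. Its paternal share was 55.4%, 42.72%, 52.89% and 52.71% in the 4 lanes, so that lane 2 was again the low one.

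At chr4:1278907-1278977, between AT4G02840 and AT4G03080, the counts were 5661 Bur-0 and 49 Col-0 matches in Bur-0×Col-0, against 1904 and 1703 in Col-0×Bur-0, with lane shares of 52.95%, 45.98%, 56.33% and 54.62%. At chr5:4336864-4336934, between AT5G13450 and AT5G13640, they were 2268 and 26 in Bur-0×Col-0, against 2299 and 119 in Col-0×Bur-0, with lane shares of 93.1%, 96.93%, 94.55% and 95%. Lane 2 was thus the lowest lane at the first of these windows and the highest at the other. The difference between lanes had no single direction over the 8 deepest members.

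**Figure D2:**
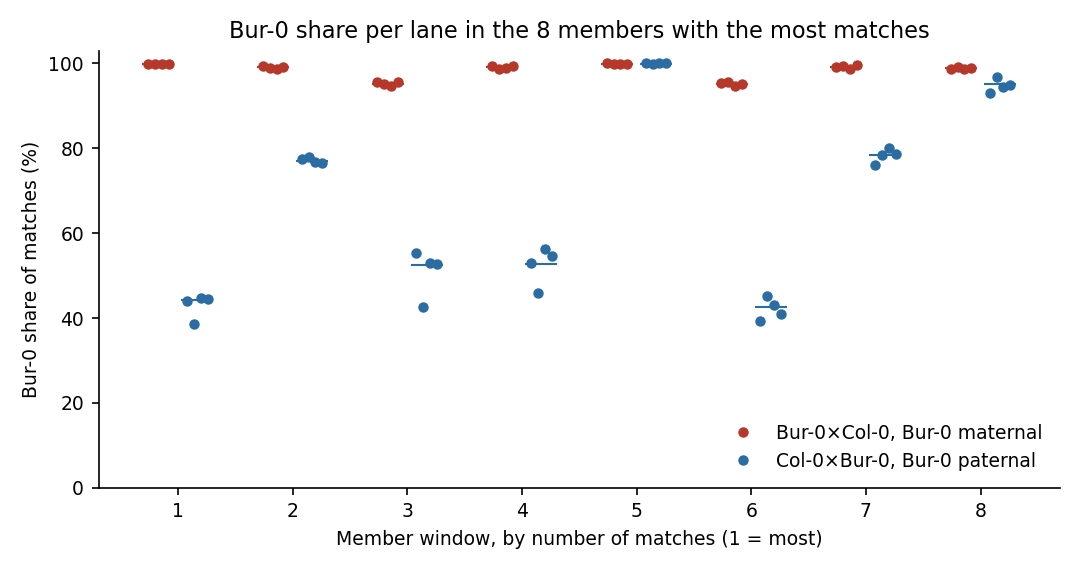
Bur-0 share of matches (%, vertical axis) in each lane of the 8 members with the most matches (horizontal axis, 1 = most). Points are lanes 1 to 4 from left to right, red for Bur-0×Col-0 and blue for Col-0×Bur-0, and short lines are the share over summed lanes; the red points lie between 94.65% and 100%, the blue ones between 38.64% and 100%, with lane 2 lowest in members 1, 3, 4 and 5.

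Among the members, the highest paternal shares were near those of the maternal allele, so that hardly a Col-0 match was seen in either cross. The 290 windows left out only for having under 5 Col-0 matches are not in this ranking. chr5:4853463-4853533 had 308 Bur-0 and 8 Col-0 matches in Bur-0×Col-0, against 96 and 0 in Col-0×Bur-0. chr4:6171201-6171271 had 5343 and 6 in Bur-0×Col-0, against 3585 and 1 in Col-0×Bur-0. The other 4 were chr3:16903850-16903920 (467 and 2, then 1947 and 7), chr2:14532578-14532648 (1320 and 1, then 770 and 4), chr4:13829037-13829107 (611 and 0, then 917 and 5) and chr5:21794558-21794628 (405 and 7, then 426 and 3), each with Bur-0 before Col-0 matches and Bur-0×Col-0 before Col-0×Bur-0. In each of these 6 windows the lowest lane of Col-0×Bur-0 was at 98.43% or above. The paternal Bur-0 level, as a part of all matches, was 5.28 times the maternal one at chr3:16903850-16903920 and 0.395 times it at chr5:4853463-4853533. The windows close to chr4:6171201-6171271 differed from each other. With Bur-0 as mother, chr4:6171156-6171226 had 2409 Bur-0 matches and no Col-0 match, and with Bur-0 as father 2273 and 1. The window chr4:6171391-6171461 held Col-0 matches only, 6451 with Bur-0 as mother and 5061 with Bur-0 as father. The cause of this difference was not tested.

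The allele share was also read at neighbouring windows. A neighbour was any window other than a member matched 20 times or more in both crosses that began more than 35 and up to 500 nt from a member, so that no read could fit both. Windows that met the conditions were members and so were left out, which removed windows with a high Bur-0 share from the neighbours and partly fixes the low median below. There were 59 members with another member within 500 nt. Neighbours lay nearer to the rest of the windows than to the members beside them: their median Bur-0 share in Col-0×Bur-0 was 2.784%, against 1.923% over all 34959 windows tested. Each window was tested for more than 1 Bur-0 match in 3 in Col-0×Bur-0 by a one-sided exact binomial test with Benjamini-Hochberg adjustment over all of them, called at an adjusted p of at most 0.05. The call was made for 51 of the 448 neighbours (11.4%), against 1097 of all windows tested (3.14%). Of those 1097, 222 were members, whose counts had chosen them, and 875 were among the 34580 other windows (2.53%). With each start counted once per lane, 19 of 324 neighbours were called, against 2.8% of all windows tested. The test compares the reads of 1 sample with a fixed ratio and has no replicate check.

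The called neighbours lay mainly where SNPs were dense. Of the 184 neighbours with a matched SNP within 35 nt, 43 were called (23.4%), against 4.65% of all tested windows of that kind, and their median share was 6.107%. Of the 264 neighbours with none, 8 were called (3.03%), against 612 of all 24535 such windows (2.49%) and 390 of the 24156 that were not members (1.61%), and their median share was 2.128%. A window of the second kind with such a share could itself be a member, which lowers its count here, while the first kind was barred from membership. The 24156 windows include the 290 that were left out only for having under 5 Col-0 matches. How many of the 390 calls came from these was not counted, so the 1.61% is not a rate for windows with a low paternal share. No test of the difference between neighbours and other windows was made.

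The members were also set beside their own neighbours, as a description, since the conditions chose members for a high paternal share and left such windows out of the neighbours. At least 1 neighbour was found for 186 members. Their summed Bur-0 share in Col-0×Bur-0 had a median of 3.629%, with quartiles of 1.26% and 13.51%, where the members themselves had a median of 48.92%. The member was higher in 171 of the 186 pairs, and its 95% Wilson interval lay above that of its neighbours in 156. The neighbours together were under 10% at 128 members and at 25% or above at 33, and 36 members had a called neighbour.

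The stretch with the most called neighbours was around chr5:658050-658120, between AT5G02770 and AT5G02970. The member had 1186 Bur-0 and 52 Col-0 matches in Bur-0×Col-0, against 534 and 573 in Col-0×Bur-0. Of its 17 neighbours 9 were called. Of these, 6 had no Col-0 match in either cross, at starts from 657903 to 658536 with windows that held Col-0 matches between them: the largest, chr5:657903-657973, had 1489 Bur-0 matches in Bur-0×Col-0, against 128 in Col-0×Bur-0. In contrast, chr5:658248-658318 had 718 Bur-0 and 1063 Col-0 matches in Bur-0×Col-0, against 79 and 2261 in Col-0×Bur-0. High and low Bur-0 shares therefore alternated over short distances. The 6 windows without a Col-0 match each had another matched SNP 6 to 14 nt away, whereas the nearest to chr5:658248-658318 was at 54 nt. What such close SNPs contributed to these shares was not tested. In lane 2 the member had 6 Bur-0 and 5 Col-0 matches, and in each other lane of Col-0×Bur-0 at least 161 and 169.

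A second group of windows lay between AT5G08670 and AT5G09400, loci with 41 genes between them. The members chr5:2823090-2823160, chr5:2823835-2823905 and chr5:2825965-2826035 had paternal Bur-0 shares of 60.95% (348 of 571), 78.45% (1969 of 2510) and 55.65% (680 of 1222). Of the 7 neighbours of the middle one, 5 were called, among them chr5:2823655-2823725 with 972 of 1146 matches (84.82%). Some other windows of this stretch had low shares: chr5:2825720-2825790 had 5 of 306 (1.634%) and chr5:2822890-2822960 had 18 of 360 (5.0%).

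Further members with called neighbours were chr5:16358638-16358708 (66.06%, 3 of 8 neighbours called), chr5:16826161-16826231 (61.21%, 2 of 4), chr4:10302799-10302869 (40.01%, 2 of 7), chr4:11429222-11429292 (44.56%, 2 of 3) and chr1:22952675-22952745 (32.2%, 2 of 6), with the paternal Bur-0 share of the member given first. The lane shares of chr5:16826161-16826231 in Col-0×Bur-0 were 62.98%, 59.71%, 59.22% and 63.95%. Those of chr4:10302799-10302869 were 34.31%, 42.41%, 37.78% and 43.92%, a wider span.

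Genes could be named for some of the members. A run of consecutive windows was given to a locus of the study's lists of maternally or paternally biased genes where its 4 summed counts equalled those of that locus and of no other run, which placed 2003 of the 2147 loci tried. The copy of the list of maternally biased genes used here was shortened, so these loci are a part of the lists and the 33 below are not a count over all of them. Of the 2003 placed loci, 33 held 42 members. The list of maternally biased genes supplied 31 of the 33 and 1905 of the 2003. That list was made from these libraries by an excess of maternal matches over all windows of a gene, so a low paternal share in the rest of such a gene is partly fixed by the choice, and members are left out of the rest by construction. No class of gene was counted.

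In all 33 loci the members had a higher paternal Bur-0 share than the other windows of the same locus. The 95% Wilson intervals did not overlap. Both are descriptions, since these same counts chose the members for a high paternal share. The members had a median share of 40.28% (25.64% to 94.74%) and the other windows of their loci one of 2.76% (0% to 11.81%). The rest of the locus was under 10% in 31 loci and under 1% in 7. Members held over 50% of the paternal Bur-0 matches of the locus in 30. Of the 341 other windows matched 20 times or more in both crosses, 3 were called, where 2.53% of all tested windows other than members were, and 5 had a share of 25% or more. Members were left out of these windows too, and the lists favour a low paternal share.

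**Figure D3:**
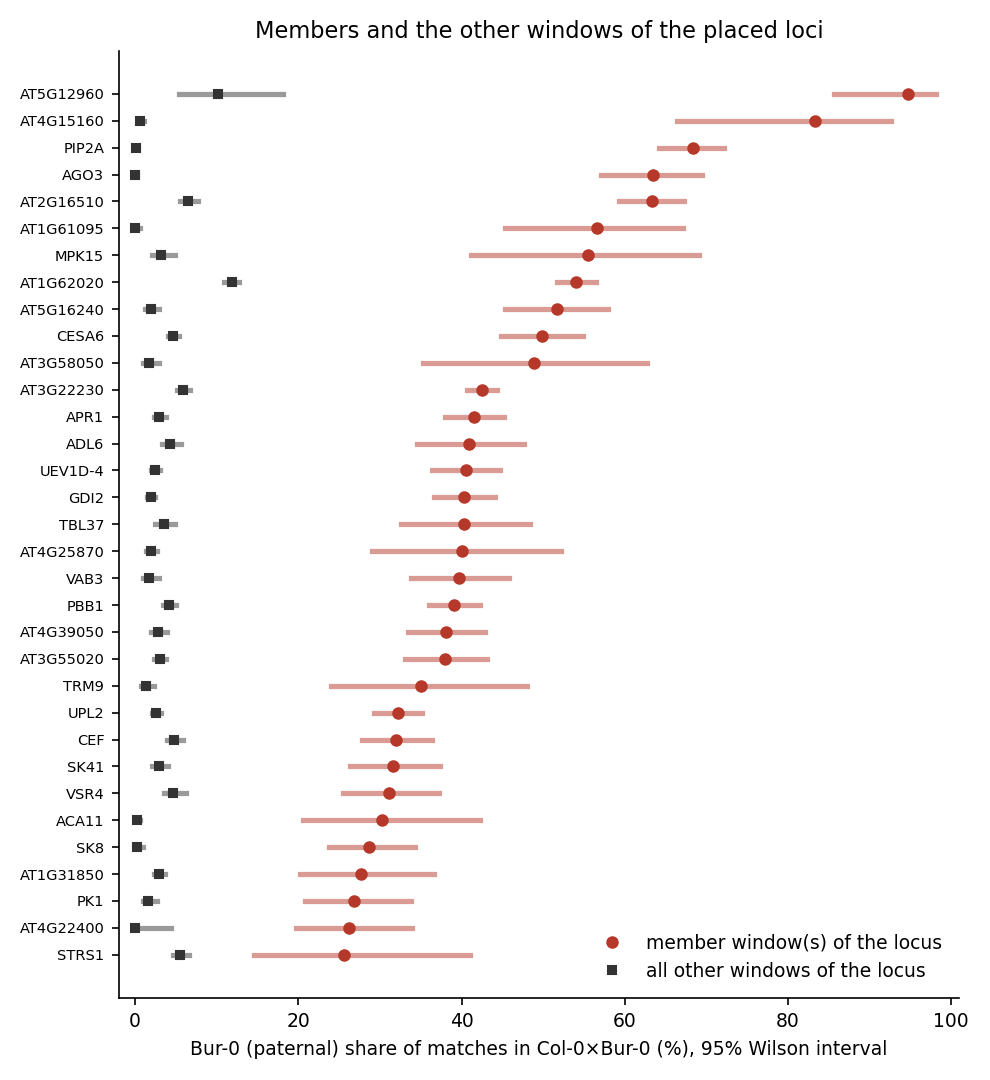
Bur-0 share of matches in Col-0×Bur-0 (%, horizontal axis) for the members (red circles) and for all other windows (black squares) of each of the 33 placed loci (vertical axis), with 95% Wilson intervals that cover counting error only. The members lie between 25.64% and 94.74% and the other windows between 0% and 11.81%.

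Genes of transport and membranes were among these loci. PIP2A (AT3G53420), a plasma membrane aquaporin, had 794 Bur-0 and no Col-0 matches in Bur-0×Col-0 at its member chr3:19816269-19816339, against 358 and 166 in Col-0×Bur-0 (68.32%). Its other 14 windows had 4445 and 36 in Bur-0×Col-0, against 2 and 2226 in Col-0×Bur-0 (0.0898%). VAB3 (AT1G20260), a B subunit of the vacuolar proton pump, had a paternal share of 39.68% (100 of 252) at its member and 1.717% (13 of 757) elsewhere. ACA11 (AT3G57330), a calcium pump, had 30.3% (20 of 66) and 0.271% (5 of 1843). For the vacuolar sorting receptor VSR4 (AT2G14720) the shares were 31.06% and 4.666%, for GDI2 (AT3G59920), a regulator of Rab GTPases, 40.36% and 1.883%, and for the dynamin-like ADL6 (AT1G10290) 40.93% and 4.303%.

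AGO3 (AT1G31290), an Argonaute protein of small RNA pathways, had 146 Bur-0 and 84 Col-0 matches in Col-0×Bur-0 at its member chr1:11188796-11188866 (63.48%). None of 1418 matches at its other 6 windows was Bur-0 in that cross, which allows a share of up to 0.212%. These windows lay on both sides of the member. In Bur-0×Col-0 all matches were Bur-0, 174 at the member and 989 at the others.

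AT1G62020, to which the gene table gives no name, held 4 members, with starts at 22925294, 22925501, 22925663 and 22926488 on chromosome 1. Their paternal Bur-0 shares were 64.4% (398 of 618), 59.89% (330 of 551), 33.33% (73 of 219) and 36.59% (105 of 287). The other windows of the locus had 572 of 4842 (11.81%), the highest rest of all 33 loci. That value was not evenly spread: chr1:22924784-22924854 had 174 of 205 (84.88%), chr1:22925906-22925976 had 275 of 338 (81.36%) and chr1:22926221-22926291 had 39 of 96 (40.62%), while windows between them such as chr1:22925411-22925481 had 6 of 244 (2.459%). The windows at 84.88%, 81.36% and 40.62% each have a matched SNP within 35 nt and so were barred from membership. The window chr1:22925411-22925481 has none so near. Some windows had many Col-0 matches with Bur-0 as mother, as chr1:22925090-22925160 with 136 Bur-0 and 212 Col-0 in Bur-0×Col-0.

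UPL2 (AT1G70320), a ubiquitin-protein ligase, also held 4 members, with 319 of 992 paternal Bur-0 matches in sum (32.16%) and 88 of 3377 in its other 12 windows (2.606%). The members had 27.04%, 44.83%, 34.57% and 26.75% in their order along the chromosome. The windows between them had 1.389% at chr1:26495859-26495929, 1.487% at chr1:26496444-26496514, 13.01% at chr1:26499258-26499328 and 1.712% at chr1:26500634-26500704. The first, second and last of these also had 26, 58 and 44 paternal Col-0 matches in Bur-0×Col-0, against 56, 99 and 110 maternal Bur-0 matches.

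A pair of members was found in each of 3 further loci. PBB1 (AT3G27430), a beta subunit of the proteasome core, had 363 of 929 (39.07%) at 2 members whose windows overlap in part, against 98 of 2390 (4.1%). CESA6 (AT5G64740), a catalytic subunit of cellulose synthase, had 189 of 379 (49.87%) at 2 members and 184 of 3945 (4.664%) elsewhere. Of these 184 matches, 59, 40, 43 and 25 came from 4 windows with shares of 15.92% to 18.44%. AT4G39050 had 153 of 402 (38.06%) at 2 members and 30 of 1087 (2.76%) elsewhere.

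**Figure D4:**
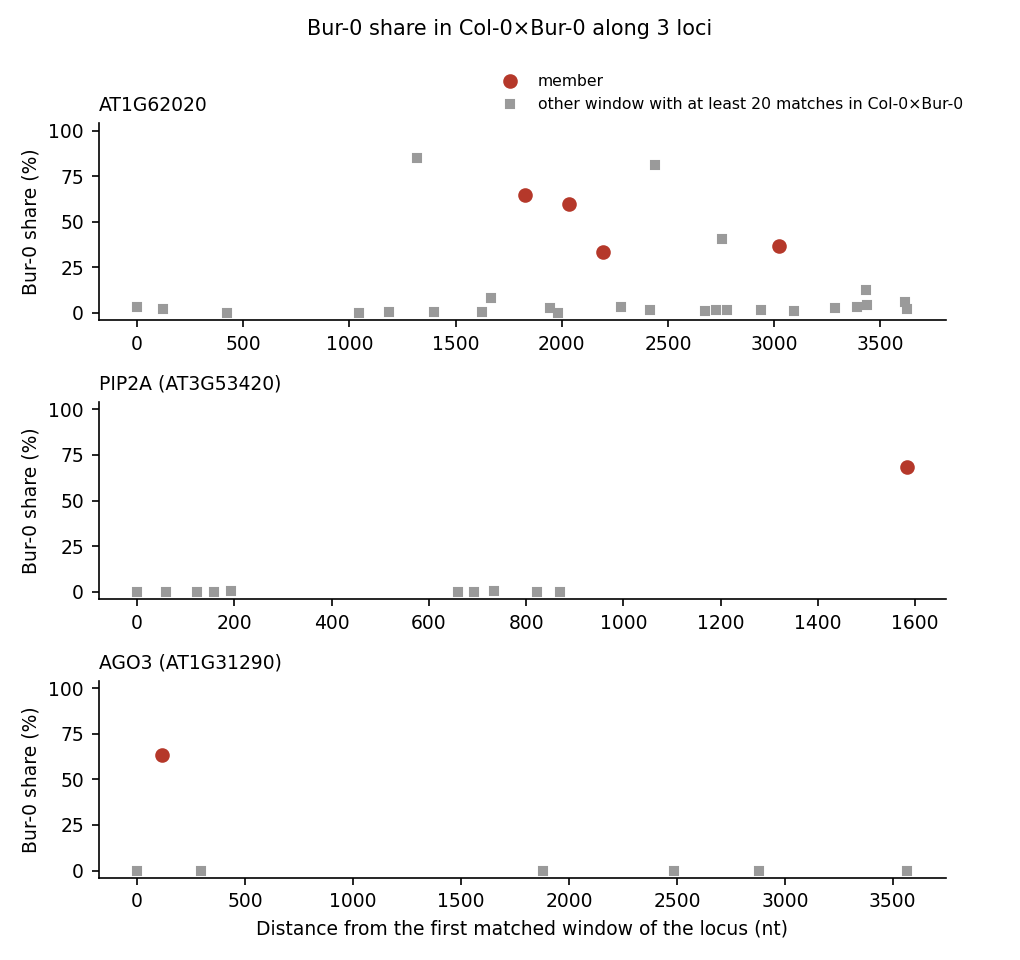
Bur-0 share of matches in Col-0×Bur-0 (%, vertical axis) at the windows of AT1G62020, PIP2A and AGO3 by distance from the first matched window of the locus (nt, horizontal axis). Red circles are members and grey squares other windows with at least 20 matches in that cross; the 4 members of AT1G62020 lie among windows near 0% and 3 other windows at 40.62% to 84.88%, and the single members of PIP2A (68.32%) and AGO3 (63.48%) stand alone.

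Signalling, RNA and metabolic genes were also among them. The MAP kinase gene MPK15 (AT1G73670) had a paternal share of 55.56% (25 of 45) at its member and 3.177% at the other windows, and the ribosomal S6 kinase gene PK1 (AT3G08730) had 26.86% (47 of 175) and 1.601%. The tRNA methyltransferase gene TRM9 (AT1G31600) had 35.09% (20 of 57) and 1.333%. APR1 (AT4G04610), an enzyme of sulphate assimilation, had 41.56% (293 of 705) and 2.962%, and the ubiquitin E2 variant gene UEV1D-4 (AT3G52560) had 40.5% (211 of 521) and 2.41%. In SK8 (AT3G21830), an SKP1-like gene, the member had 28.72% (81 of 282) and the only other window 0.176% (1 of 568). The paper's allele-specific PCR on separately prepared RNA found this gene expressed mainly from the maternal alleles in both crosses.

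AT5G12960 came from the list of paternally biased genes. Its member chr5:4098645-4098715 had 47 Bur-0 and 2 Col-0 matches in Bur-0×Col-0, against 54 and 3 in Col-0×Bur-0 (94.74%). Its other windows had 5 and 64 in Bur-0×Col-0, against 9 and 80 in Col-0×Bur-0 (10.11%). The member and the rest of this locus thus had opposite alleles in excess in both crosses. AT4G15160 had the second highest share, 25 of 30 (83.33%) at its member and 0.622% elsewhere.

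The remaining 11 loci were SK41 (AT1G09840), STRS1 (AT1G31970), AT1G31850, AT1G61095, CEF (AT3G44340), TBL37 (AT2G34070), AT3G55020, AT3G58050, AT4G22400, AT4G25870 and AT5G16240. Their members had paternal shares from 25.64% (10 of 39, STRS1) to 56.58% (43 of 76, AT1G61095), and the rest of these loci had 0% to 5.556%. In STRS1, AT1G31850 and AT4G25870 the members held 8.333%, 29.25% and 43.33% of the paternal Bur-0 matches of the locus, the only 3 loci of the 33 in which they held less than the other windows together.

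AT3G22230 held the deepest placed member, chr3:7844267-7844337, with 3301 Bur-0 and 167 Col-0 matches in Bur-0×Col-0, against 1135 and 1534 in Col-0×Bur-0 (42.53%). The lane shares in Col-0×Bur-0 were 39.26%, 45.21%, 43.03% and 40.93%, with lane 2 the highest. Its 2 other windows had 201 of 3438 paternal Bur-0 matches (5.846%). AT2G16510 had 360 of 568 (63.38%) at its member and 136 of 2082 (6.532%) elsewhere. UPL2, PIP2A and other loci here belong to gene families with closely similar members, between which 36 nt reads can be shared, and the part of such copies in these shares was not tested.

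A second measure was where in the window the matches began. A 36 nt read that covers the SNP can start at any of 36 places in either orientation, so that a window offers 72 kinds of start. Members had a median of 27 kinds of start for Bur-0 matches in Bur-0×Col-0, of 17 for Bur-0 matches in Col-0×Bur-0 and of 18 for Col-0 matches in Col-0×Bur-0. The most used start held 20%, 24.29% and 20.69% of the matches at the median member for these sets. With each start and orientation counted once per lane, the paternal share in Col-0×Bur-0 had a median of 48.85% and was still 25% or more at 371 members. In Bur-0×Col-0 the maternal share counted so had a median of 98.39% and was 95% or more at 308. The part that the limit of 72 starts had in this was not tested.

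The paternal Bur-0 matches of members often came from 1 side of the window. Matches were compared at the 231 members with at least 20 matches of each of the 3 kinds. At 86 of them (37.2%), at least 90% of the paternal Bur-0 matches began in the same 18 of the 36 starting places, the first or the last, so that they covered mainly 1 flank of the SNP. This was the case for 130 of the 790 other comparable windows with at least 20 matches of each kind (16.5%). For maternal Bur-0 matches in Bur-0×Col-0 it was the case at 31 members (13.4%) and 61 other windows (7.72%), and for maternal Col-0 matches in Col-0×Bur-0 at 18 members (7.79%) and 54 other windows (6.84%). Over all 379 members the median number of matches was 89 with Bur-0 as mother and 96 with Bur-0 as father. It was 65 and 73 over the other 24156 windows. These medians are not those of the 231 and 790 windows compared, which were not matched for depth. No test of the differences between members and other windows was made.

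The one-sided starts thus belonged to the paternal Bur-0 matches more than to the same base from the mother. Both Bur-0 sets were one-sided at 30 members, the paternal set alone at 56 and the maternal set alone at 1. The deep window chr4:1278907-1278977 was of the second kind: 98.42% of its paternal Bur-0 matches began on 1 side, against 82.51% of the maternal Bur-0 and 52.97% of the maternal Col-0 matches. At the member of AT3G22230 these shares were 95.24%, 69.55% and 54.37%. At the deepest member, chr3:18278445-18278515, they were 50.12%, 56.84% and 64.08%, with no such difference. The fuller side held 79.49% of the paternal Bur-0, 69.03% of the maternal Bur-0 and 64.0% of the maternal Col-0 matches at the median of the 231 members.

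**Figure D5:**
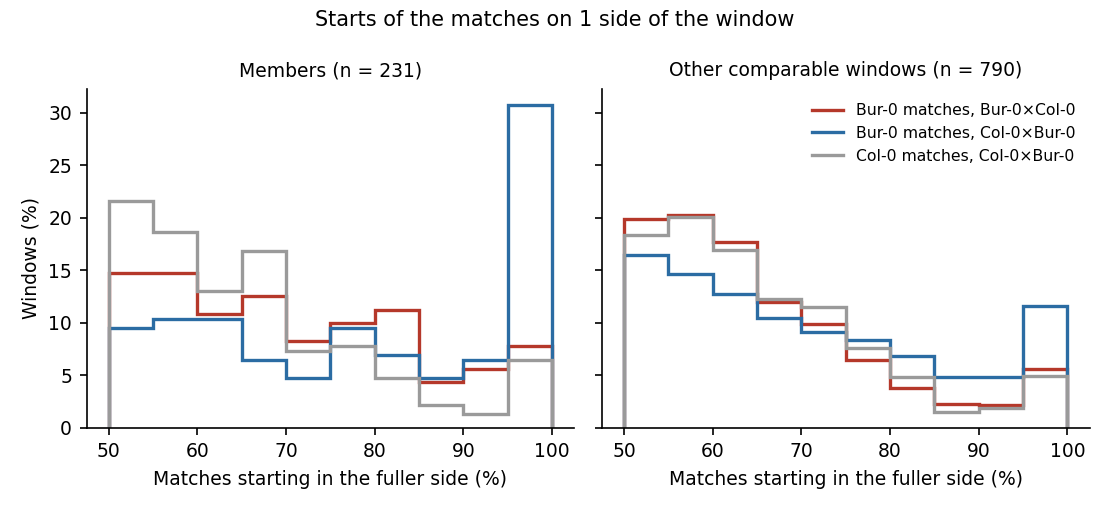
Share of windows (%, vertical axis) by the share of their matches that began on the fuller side (%, horizontal axis, bins of 5 percentage points), for the 231 members (left) and 790 other comparable windows (right) with at least 20 matches of each kind. Red is Bur-0 matches in Bur-0×Col-0, blue Bur-0 matches in Col-0×Bur-0 and grey Col-0 matches in Col-0×Bur-0; at 90% or more lie 37.2% of members for the blue line, against 13.4% for the red and 7.79% for the grey.

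Late sequencing cycles and orientation were also compared. The SNP was read in cycles 31 to 36 of the read in 8.82% of the paternal Bur-0 matches at the median member, in 10.77% of the maternal Bur-0 matches and in 12.75% of the maternal Col-0 matches. The direct orientation held a median of 50% of the paternal Bur-0, 50% of the maternal Bur-0 and 46.91% of the maternal Col-0 matches at the 231 members.

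The study's joint test was also turned from parent to accession: the larger of the one-sided binomial p-values against 2 Bur-0 matches in 3 with Bur-0 as mother and against 1 in 3 with Bur-0 as father was squared and adjusted over all 34959 windows. It called 1123 windows (3.21%), of which 255 were members. As the counts of both crosses had chosen the members, this number is a description.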

How the data were processed

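Seeds of the crosses Bur-0×Col-0 and Col-0×Bur-0 were sequenced by the authors as 36 nt mRNA reads, 1 sample on 4 lanes per cross. The deposited files hold 1 line per match of a read to a SNP window; the authors built 71 nt windows around Bur-0 SNPs on TAIR8 and matched reads with vmatch, allowing 2 mismatches and keeping only matches unique in the window set. Each line gives a window, an allele, an orientation and a start (entered as unit other); no read sequence or mismatch number was used. Here lines were counted per window, allele and lane and lanes were summed, which gives counts that are not normalized; levels were divided by each library's total. The number of columns not used was 0. As no molecular identifiers mark PCR copies, Wilson intervals (95%) and limits for a count of 0 (3 counts) cover counting error only.

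The members and lists were chosen with earlier results of these data known. Windows named were the 8 members with the most matches, the 6 highest and 4 lowest paternal shares, up to 8 with the most called neighbours, and 3 windows on each side of the 25% limit; every placed gene with a member was named, and further windows beside members were chosen after their values were seen. Tests were exact binomial tests with Benjamini-Hochberg adjustment (threshold 0.05) in Python 3.11.15 with SciPy 1.17.1, NumPy 2.4.6 and pandas 2.3.3, checked on simulated data. Gene runs were matched on summed counts from the study's gene lists, used as a key only. Gene symbols and order came from the RefSeq TAIR10.1 gene table, without its coordinates; 2002 of the 2003 placed loci were in it, and 1 lay out of locus order. Exon, intron and UTR positions and window sequences were not used here. Groups of genes by product words were not made, since the table gives symbols and synonyms only. Alternatives were lanes left out, starts counted once, other depths, distances and null ratio.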

Additional observations from a re-analysis of the deposited data

How the results depend on the processing

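With 1 sample per cross and lanes taken as technical repeats, no value here measures the spread between crosses or plants. No paired analysis was possible because the labels give 1 sample per cross and no replicate numbers. Members numbered 333 to 349 without a lane, of which 312 to 334 were among the 379, and 306 (272 shared) with each start counted once per lane, 284 with the next matched SNP over 70 nt away, 451 with at least 10 and 255 with at least 50 matches, but 765 with no limit on the next SNP. The summed paternal Bur-0 share of members was 59.6%, 57.13%, 59.51% and 59.4% without lanes 1, 2, 3 and 4 of both crosses, 59.08% without lane 2 of Col-0×Bur-0 alone and 49.71% with each start counted once per lane, where the maternal share in Bur-0×Col-0 was 98.41%. The shares without a lane and with starts counted once are over the windows that met the conditions under each setting, not over the same 379. Without the deepest member, an alternative chosen after seeing the data, the summed shares were 98.43% in Bur-0×Col-0, against 63.12% in Col-0×Bur-0. The called neighbours were 51 of 448, against 3.14% of all windows tested. With each start counted once per lane they were 19 of 324, against 2.8%. Within 250 nt they were 30 of 255 and within 1000 nt 70 of 725, both against 3.14%. Of those with no matched SNP within 35 nt 8 of 264 were called, against 2.49% of all such windows. Without a lane 43 to 46 were called, against 2.96% to 3.05%. With a null ratio of 1:1 they were 38 of 448, against 2.41%. The neighbours' median paternal share stayed between 2.128% and 3.571% under all alternatives run. Members called by the joint test, 255, became 163 with each start counted once per lane and 156 with a 1:1 ratio, alternatives also chosen after seeing the data. By construction, stricter settings enter fewer matches or windows and wider ones more; the 1:1 ratio changes neither. Counting matches without mismatch, and keeping windows unique in a genome, were planned and not run, as neither mismatches nor a genome were used here.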
